A study of Mus musculus with 9 samples.

Results

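The cytochrome P450 genes were followed in the colon epithelium of mice fed heme. A gene was counted as a P450 gene where its annotated symbol was Cyp followed by a digit, with Cyp51 left out, and where the array held a probeset annotated to it alone. There were 86 such genes, of 19938 genes with a probeset of their own, and they fell into 36 subfamilies. Each of the 86 was measured by a single probeset. Among them 2, Cyp4f41-ps and a Cyp2d gene, carry a pseudogene symbol. Signal is given on the log2 scale throughout, so a difference of 1 is a doubling, and levels of different probesets are not set against each other because probes differ in how brightly they bind.

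Heme pools came from male C57BL/6J mice, an inbred strain, aged 9 to 11 weeks, which ate a diet with 40% of its energy as fat plus 0.2 µmol heme per g and were taken on day 2, 4, 7 or 14. Control pools came from mice of the same strain, sex and age on the same fat-rich diet with no heme added, taken on those days or on day 0. All animals, the heme-fed ones included, had first spent 1 week on the control diet. Epithelial cells were scraped from the opened colon, and the RNA of 4 mice was pooled for each array, except for the control pool of day 2, which held 3 mice. There were thus 4 heme arrays and 5 control arrays, and no diet and day had a second pool. Every p-value therefore measures the spread between pools of different days and not between animals. The study asked, by its title, which responses of the colon to heme come at once and which come later.

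P450 enzymes are monooxygenases that hold a heme group at their active site and insert 1 atom of oxygen into a substrate. Most sit in the endoplasmic reticulum and draw electrons from P450 reductase and cytochrome b5, while a mitochondrial group draws them from ferredoxin. Members of families 1 to 3 oxidise drugs and other foreign compounds as well as arachidonic acid, family 4 hydroxylates the end of fatty acid chains, and the remaining families act on sterols, bile acids, retinoids, vitamin D and steroid hormones. In the gut they take part in the first oxidation of compounds absorbed from food.

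Of the 86 genes, 43 had a mean signal at or above the 25th percentile of all gene means (4.716 log2) and were tested. The other 43 were dim and were not tested. Just inside that limit lay Cyp2c23 (mean 4.77), Cyp4f39 (4.78) and Cyp11b2 (4.80), and just outside it Cyp2b23 (4.65), Cyp11b1 (4.64) and Cyp4f15 (4.61). Cyp4a10 passed only through its heme pools, with a mean of 6.28 in heme pools and 4.24 in control pools, and so had to differ between the diets. Of the 43 tested P450 genes, 38 had a heme mean within 0.5 of the control mean. This is a smaller share than the 14822 of all 14953 genes tested. The median size of the difference in either direction was 0.14 for P450 genes and 0.07 for all genes.

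**Figure D1:**
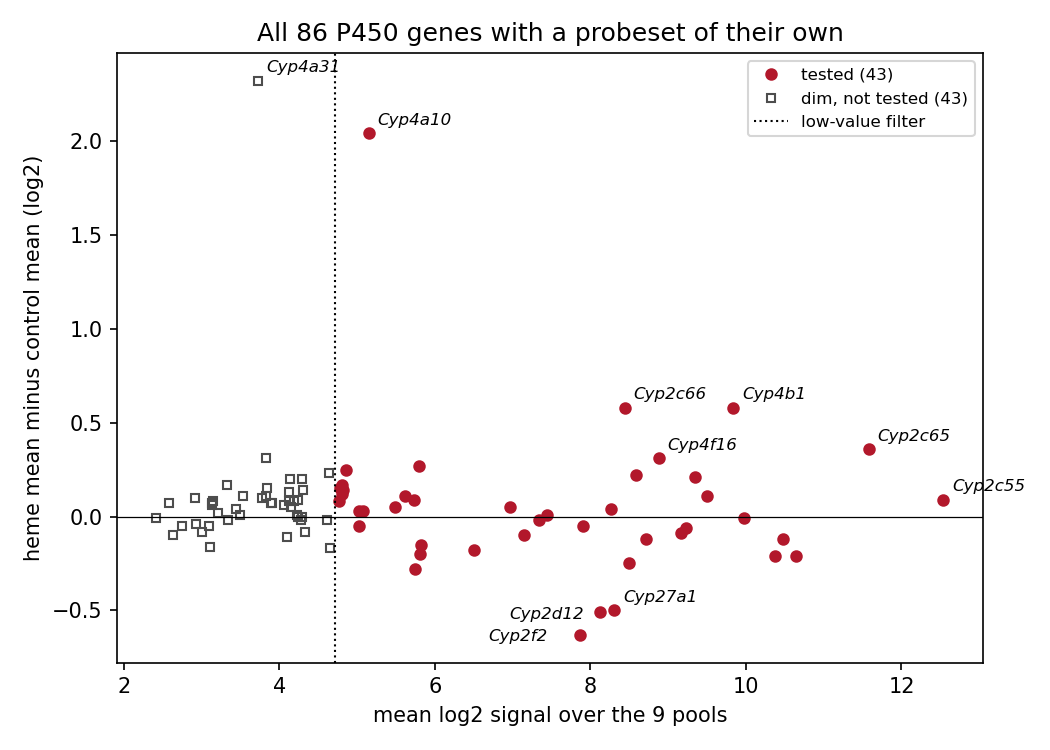
Mean log2 signal over the 9 pools (horizontal axis) against the heme mean minus the control mean (vertical axis, log2) for the 86 P450 genes, with filled circles for the 43 tested genes, open squares for the 43 dim genes and a dotted line at the low-value filter. Cyp4a10 at 2.04 and Cyp4a31 at 2.32 lie far above the rest, and Cyp2f2 at -0.63 lies lowest.

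The scrapings carried colonocyte markers (Car1, Slc26a3, Krt20 and others), whose mean over 10 genes was 11.82 to 11.87 in heme pools and 11.73 to 11.79 in control pools. Markers of the exocrine pancreas averaged 9.50 in the heme pool of day 2 and 8.97 in the control pool of day 2, and lay between 5.35 and 5.51 in the 7 other pools. Smooth muscle markers ranged from 7.09 to 9.18 in heme pools and from 7.25 to 9.90 in control pools. Hepatocyte markers averaged 6.47 to 6.63 in heme pools and 6.49 to 6.74 in control pools. The heme pool of day 14 stood apart from the rest: it was the highest of the 9 pools for 25.4% of all genes tested and the lowest for 28.7%, and for P450 genes these shares were 27.9% and 32.6%. The control pool of day 0 was the lowest for 12 of the 43 tested P450 genes (27.9%), against 8.48% of all genes tested.

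Over all days, 4 P450 genes were higher with heme and 0 were lower (limma, adjusted p under 0.05). They were Cyp4a10, Cyp4b1 and Cyp4f16 of the fatty acid hydroxylases and Cyp2c66 of the arachidonic acid enzymes, and made up 9.3% of the tested P450 genes. Cyp4a10 passed the low-value filter only through its heme pools, so its call, here and by day, was favoured in advance. Over all 14953 genes tested, 0.595% were called higher and 0.0736% lower. At an unadjusted p under 0.05 there were 12 P450 genes higher and 4 lower, together 37.2% of the 43, against 17% of all genes tested. All 4 heme pools lay above all 5 control pools for 7 tested P450 genes (16.3%), namely Cyp4a10, Cyp4b1, Cyp4f16, Cyp4f39, Cyp4f40, Cyp2c65 and Cyp2c66, while 3.26% of all genes tested did so. The same limit holds for Cyp4a10 in this count. No tested P450 gene had all heme pools below all control pools, which 2.33% of all genes tested did. The calls rest on few pools: 0 P450 genes were called without the heme pool of day 14, without the control pool of day 4 or without that of day 14, and 1 without the heme pool of day 7, Cyp2c66. In the 3 fits with no P450 call, 44, 30 and 45 of all genes were called higher, against 89 with all pools, while the log2 difference was 1.87 to 2.00 for Cyp4a10 and 0.56 to 0.60 for Cyp2c66. There were 2 without the heme pool of day 4 or without the control pool of day 0, 2 or 7. With both pools of day 2 left out, which carried the pancreas markers, there were again 2, Cyp4a10 (log2 difference 2.49) and Cyp4f16 (0.37). With the day as a replicate block, 2 were called, Cyp2c66 and Cyp4b1, where 0.461% of all genes were called higher.

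**Figure D2:**
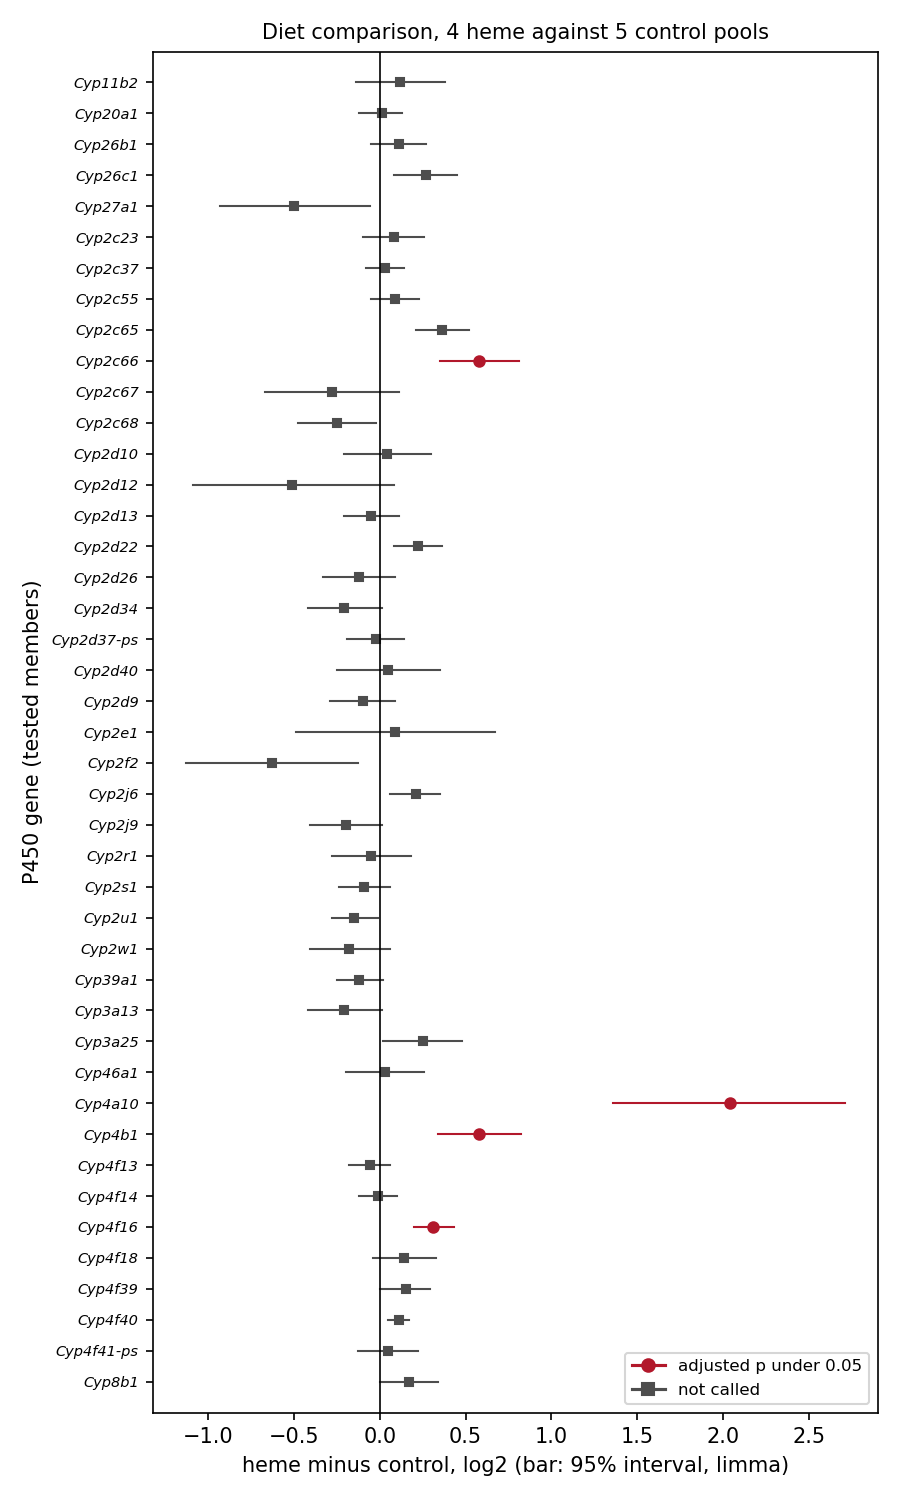
Heme minus control difference (log2) of each of the 43 tested P450 genes, ordered by subfamily, from 4 heme and 5 control pools, with bars for the 95% interval of limma's fit. The 4 genes in red (Cyp2c66, Cyp4a10, Cyp4b1 and Cyp4f16) were called, and most other intervals cross 0.

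Cyp4a10, which hydroxylates the end carbon of fatty acids and is induced in rodent liver through the receptor PPAR alpha, had the largest difference of the tested P450 genes. Its signal was 5.27, 6.18, 6.88 and 6.78 in the heme pools of days 2, 4, 7 and 14, against 3.99, 4.69, 3.99, 4.46 and 4.08 in the control pools of days 0, 2, 4, 7 and 14. Every heme pool lay above every control pool, and the heme pool of day 2 was the lowest of the 4. The mean was 6.28 ± 0.74 in heme pools (SD, n = 4) and 4.24 ± 0.32 in control pools (SD, n = 5), a 4.11-fold rise (log2 difference 2.04, SE 0.30, adjusted p = 0.0165). As Cyp4a10 passed the low-value filter only through its heme pools, this p-value is no separate support for a difference. With the day as a replicate block the log2 difference was 1.97 and the adjusted p 0.0616.

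Cyp4a31, a neighbour of Cyp4a10 in the mouse Cyp4a gene cluster, was dim and not among the genes tested. It had 3.41, 5.66, 5.75 and 5.27 in the heme pools of days 2, 4, 7 and 14, against 2.59, 2.88, 3.01, 2.43 and 2.60 in the control pools. Its heme pools all lay above its control pools, as they did for 1 of the 43 dim P450 genes and for 0.802% of all dim genes, while 0.181% of dim genes lay below. In the fit without the low-value filter the adjusted p of Cyp4a31 was 0.0451, where 0.406% of all genes were called higher. A further probeset, annotated to Cyp4a10, Cyp4a31 and Cyp4a32 together and counted to none of them, read 5.43, 6.64, 7.52 and 7.10 in heme pools and 4.04 to 4.27 in control pools. As these genes are close copies, the probes may not tell their transcripts apart.

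The remaining Cyp4a genes were dim and moved little. Cyp4a14, another fatty acid hydroxylase that PPAR alpha induces in mouse liver, lay between 4.08 and 4.37 in heme pools and between 4.16 and 4.29 in control pools. Cyp4a12a and Cyp4a12b had heme means 0.04 and 0.08 below their control means. The high signal with heme was therefore found for some genes of the cluster and not for others on these probes.

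Cyp4b1, which acts on medium-chain fatty acids and activates some plant and industrial toxins, lies at the edge of the same cluster. It read 10.16, 10.28, 10.16 and 10.06 in the heme pools, against 9.20, 9.69, 9.58, 9.82 and 9.64 in the control pools. The heme pools were close together, and the control pool of day 0 was the lowest of all. The log2 difference was 0.58 (SE 0.11, adjusted p = 0.0449), a 1.49-fold rise. Without the control pool of day 0 the log2 difference was 0.48 with an adjusted p of 0.0166, and this fit called 2 P450 genes, Cyp4b1 and Cyp2c65. Without the low-value filter the adjusted p of Cyp4b1 was 0.0544.

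**Figure D3:**
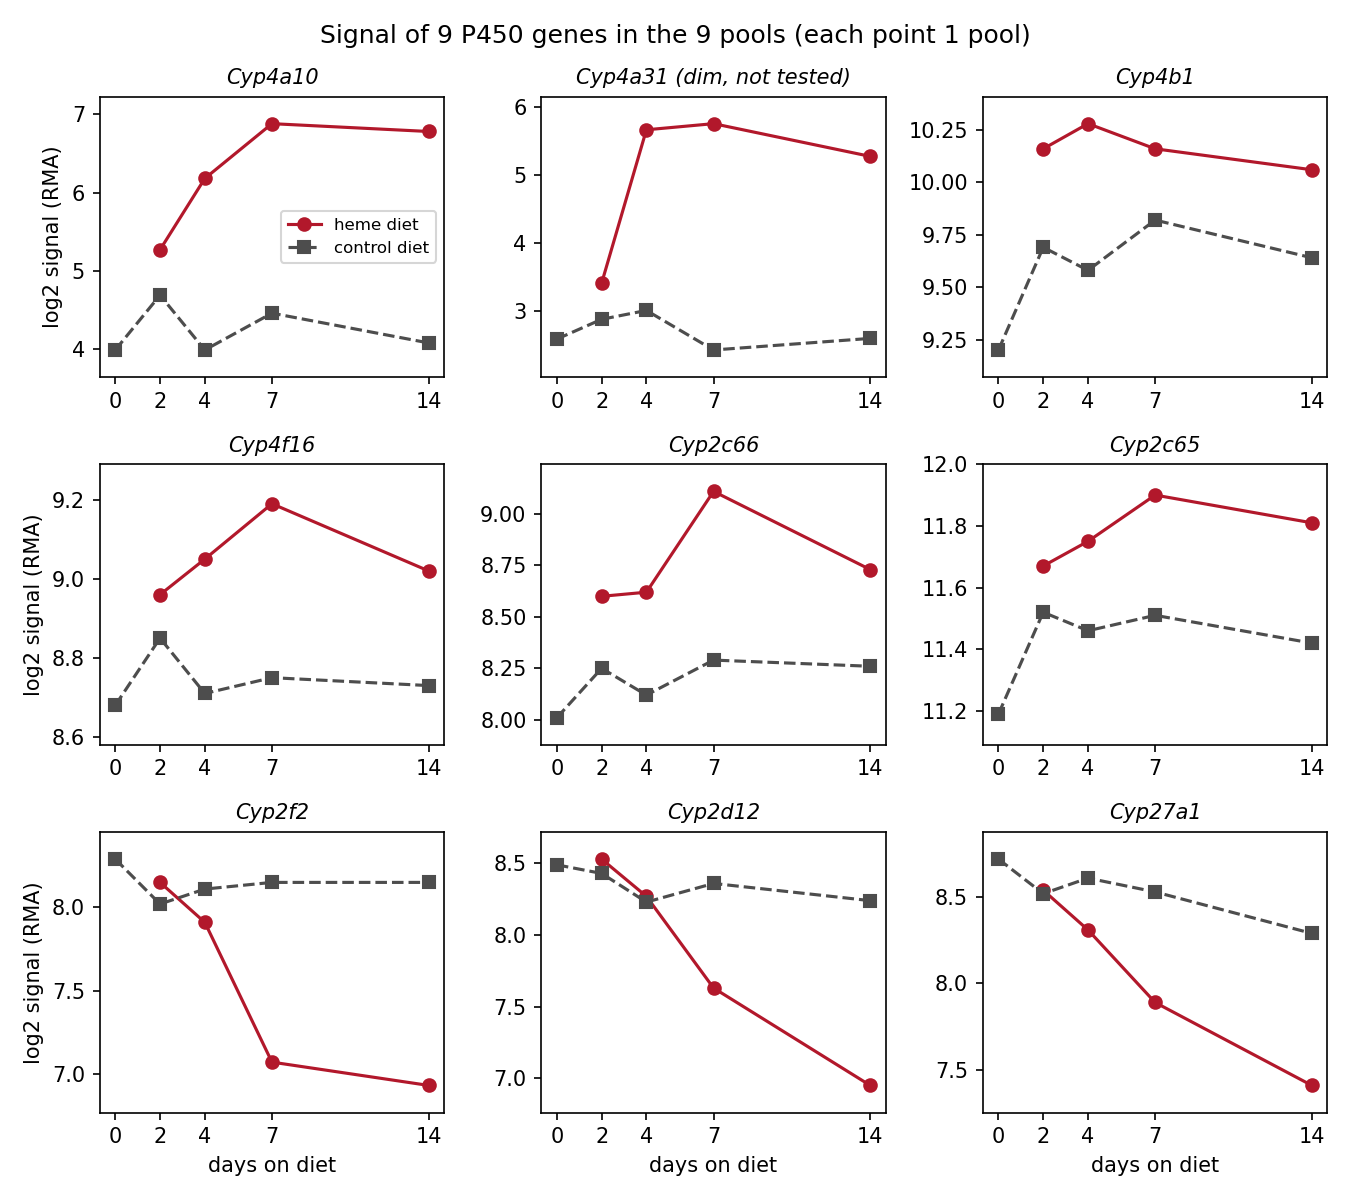
Log2 signal of 9 P450 genes by days on the diet, with heme pools as red circles and control pools as grey squares, each point being 1 pool of mice, and a vertical scale of its own in each panel. Cyp4a10, Cyp4a31, Cyp4b1, Cyp4f16, Cyp2c66 and Cyp2c65 lie above the control pools on each day, whereas Cyp2f2, Cyp2d12 and Cyp27a1 are near the control pools on day 2 and below them on days 7 and 14.

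The Cyp4f genes code for hydroxylases of leukotrienes and other long-chain fatty acids, and 7 of the 9 members were tested. The tested ones include Cyp4f41-ps, which carries a pseudogene symbol. Cyp4f16 read 8.96, 9.05, 9.19 and 9.02 in heme pools, against 8.68, 8.85, 8.71, 8.75 and 8.73 in control pools. The groups did not overlap, though the shift was small, 1.24-fold (log2 difference 0.31, SE 0.05, adjusted p = 0.0225). With the day as a replicate block its adjusted p was 0.0943. Cyp4f40, for which no role is given here, had 9.52 to 9.61 in heme pools and 9.41 to 9.47 in control pools, a gap without overlap whose adjusted p was 0.148. Cyp4f39, whose human counterpart makes skin barrier lipids, had 4.82 to 4.89 in heme pools and 4.54 to 4.81 in control pools, close to the low-value limit. Cyp4f14, a leukotriene B4 hydroxylase in mice, had 9.86 to 10.13 in heme pools and 9.94 to 10.04 in control pools, and was not called over all days. Within the subfamily the difference between diets ran from -0.06 for Cyp4f13 to 0.31 for Cyp4f16.

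Among the 13 Cyp2c genes, 7 were tested and 1, Cyp2c66, was called over all days. Cyp2c66, a mouse Cyp2c enzyme that oxidises arachidonic acid, read 8.60, 8.62, 9.11 and 8.73 in heme pools, against 8.01, 8.25, 8.12, 8.29 and 8.26 in control pools. The heme pool of day 7 stood highest, and no heme pool overlapped the control pools. The log2 difference was 0.58 (SE 0.10, adjusted p = 0.0387), a 1.49-fold rise. Its neighbour Cyp2c65, which acts on the same substrate, read 11.67, 11.75, 11.90 and 11.81 in heme pools, against 11.19, 11.52, 11.46, 11.51 and 11.42 in control pools. These groups did not overlap either, and the log2 difference of 0.36 (SE 0.07) missed the threshold with an adjusted p of 0.055. With the arrays centred on their medians the adjusted p of Cyp2c65 was 0.034. Cyp2c55, next in the cluster and known as a colon enzyme that makes hydroxyeicosatetraenoic acids, had 12.47 to 12.69 in heme pools and 12.30 to 12.55 in control pools (log2 difference 0.09, 95% interval -0.05 to 0.23, adjusted p = 0.437). Cyp2c67 and Cyp2c68, farther along, had log2 differences of -0.28 and -0.25 with adjusted p of 0.407 and 0.274.

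The sequences before the transcription starts of the 3 neighbours are shown so that these members of the cluster can be told apart by sequence as well as by signal, and nothing here tests whether the 2 are linked. Each run gives the 250 bases before the start, 5′ to 3′, from RefSeq on build GRCm38.p6, plus strand, and capitals mark CAAAGTCC, the core of a site type that nuclear receptors such as HNF4 alpha bind.
Cyp2c66, chr19:39113648-39113897: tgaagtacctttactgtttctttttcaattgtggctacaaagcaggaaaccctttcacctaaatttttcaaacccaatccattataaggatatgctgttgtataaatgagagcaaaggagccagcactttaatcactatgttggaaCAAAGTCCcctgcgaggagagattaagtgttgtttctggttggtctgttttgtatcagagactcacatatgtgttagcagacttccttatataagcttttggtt
Cyp2c65, chr19:39060756-39061005: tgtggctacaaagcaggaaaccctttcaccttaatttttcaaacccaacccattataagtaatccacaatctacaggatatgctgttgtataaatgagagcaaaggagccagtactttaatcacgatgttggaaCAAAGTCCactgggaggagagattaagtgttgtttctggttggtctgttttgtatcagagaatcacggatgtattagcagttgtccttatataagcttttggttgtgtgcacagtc
Cyp2c55, chr19:39006769-39007018: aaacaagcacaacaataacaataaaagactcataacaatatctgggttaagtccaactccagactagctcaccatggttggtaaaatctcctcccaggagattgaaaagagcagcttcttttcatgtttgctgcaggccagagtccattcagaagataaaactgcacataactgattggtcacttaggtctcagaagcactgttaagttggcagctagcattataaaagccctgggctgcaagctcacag
The Cyp2c66 and Cyp2c65 runs matched at 208 of 221 aligned bases (94.1%).

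Promoter windows of 250 bases before to 50 after the start were at hand for 63 of the 86 P450 genes, in 71 windows, and for 32 of the 43 tested ones, and each motif was searched on both strands. CAAAGTCC was in 9 of the 71 windows (12.7%) and in 1.42% of all 32851 windows. The longer form CAAAGTCCA was in 7 (9.86%) and in 0.475% of all. Of the genes with CAAAGTCC, Cyp2c65, Cyp2c66, Cyp2c67, Cyp2c68 and Cyp2c70 lie in the same cluster, and Cyp3a11 and Cyp3a16 share another. Windows within a cluster can be near copies, as those of Cyp2c65 and Cyp2c66 are. The P450 shares therefore do not count independent windows and are no measure of an excess. Cyp2c65 held the longer form, and Cyp2c66 differed from it by A9C, counted from 1 at the first base of CAAAGTCCA. Cyp2c67 and Cyp2c68, which were not higher with heme, held the longer form too. The antioxidant-type letters TGACNNNGC were in 7 of the 71 windows (9.86%), those of Cyp2c65, Cyp2c66 and Cyp2j6 among them, and in 12.4% of all. The letters AGGTCA, a unit of the sites that PPAR alpha and related receptors bind, were in 23.9% of the P450 windows and 16.3% of all, and GCGTG, the core bound by the aryl hydrocarbon receptor, in 22.5% and 32.4%. No window was at hand for Cyp4a10 or Cyp4a31. A match describes letters and not binding.

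By day, each heme pool was set against the same 5 control pools, so the 4 comparisons share their controls and each has a lone heme pool that is assumed to vary like them. On day 2, 0 P450 genes were called (limma, adjusted p under 0.05), against 0.00% of all genes. At an unadjusted p under 0.05 there were 8 (18.6%), against 9.26% of all genes. On day 4, 0 were called, against 0.00669% of all genes. At an unadjusted p under 0.05 there were 10 (23.3%), against 7.02% of all genes. On day 7, 4 were higher and 2 lower, where 0.883% of all genes were higher and 0.749% lower. On day 14, 14 were higher (32.6%) and 11 lower (25.6%), where 11.3% of all genes were higher and 15.8% lower. The direction was thus mixed on the later days, and the median difference over the tested P450 genes was -0.02 on day 7 and -0.01 on day 14, beside medians over all genes of -0.01 and -0.00.

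**Figure D4:**
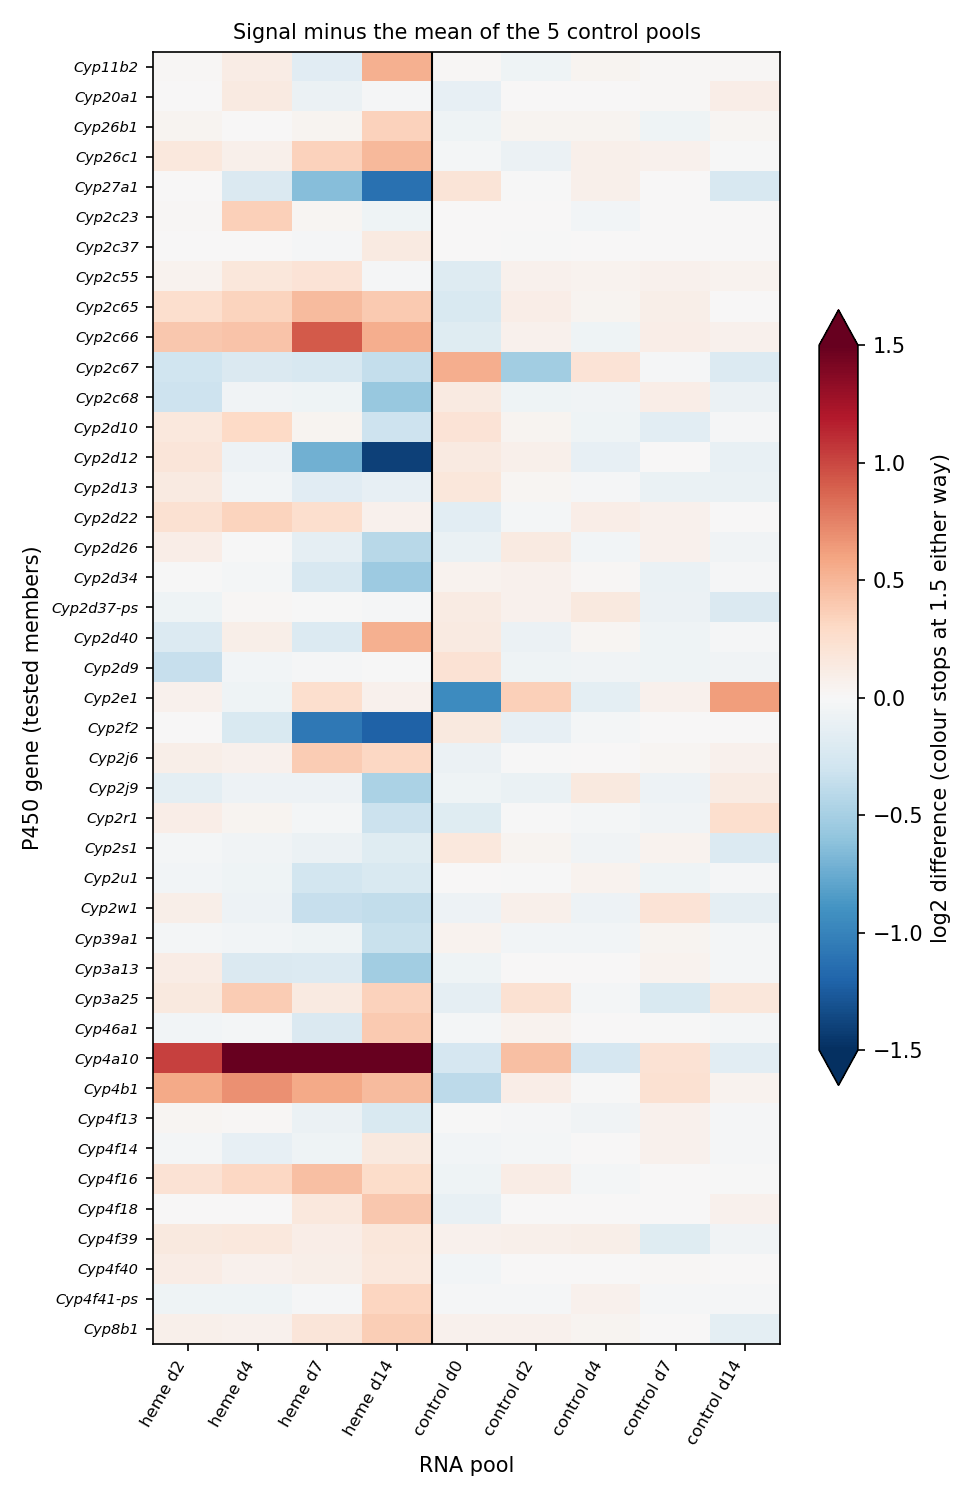
Signal of each tested P450 gene in each pool minus the mean of its 5 control pools (colour, log2, red higher and blue lower), with the 4 heme pools on the left and the 5 control pools on the right. Cyp4a10, Cyp4b1, Cyp2c65 and Cyp2c66 are red in all 4 heme pools, while Cyp2f2, Cyp2d12 and Cyp27a1 turn blue on days 7 and 14.

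The genes higher on day 7 were Cyp4a10 (log2 difference 2.64), Cyp2c66 (0.93), Cyp4f16 (0.45) and Cyp2j6 (0.37). Without any 1 control pool in turn, 0 to 1 P450 genes were called higher on that day and 0 to 1 lower. Cyp2c66 kept its call without control day 0, and Cyp2f2, a lower gene, without control day 0 or 2. Calls over all genes fell in the same fits, from 132 higher and 112 lower to 3 to 39 higher and 5 to 29 lower. The loss is thus not particular to P450 genes. For Cyp2j6, Cyp4f16 and Cyp2d12, dropping the low-value filter or the intensity trend also ended the day 7 call. Cyp2j6, an arachidonic acid epoxygenase of the mouse intestine, read 9.34, 9.32, 9.63 and 9.56 in heme pools, against 9.16, 9.24, 9.26, 9.28 and 9.32 in control pools. Its early heme pools lay at or just above the top of the control range and its late ones farther above it (day 7 adjusted p = 0.0477, day 14 adjusted p = 0.0173). Its relative Cyp2j9, of the mouse brain, had 5.75, 5.82, 5.82 and 5.42 in heme pools and 5.80 to 6.05 in control pools, and was lower on day 14 (log2 difference -0.48, adjusted p = 0.0283). Within family 2j the members tested thus moved in opposite directions on day 14.

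Cyp2f2, which activates naphthalene in the mouse airway, had the lowest difference of the tested P450 genes. It read 8.15, 7.91, 7.07 and 6.93 in heme pools, against 8.29, 8.02, 8.11, 8.15 and 8.15 in control pools. The heme pool of day 2 lay inside the control range, that of day 4 just below it and those of days 7 and 14 more than 1 log2 unit under the control mean. The log2 difference was -1.07 on day 7 (SE 0.09, adjusted p = 0.0133), a 2.10-fold fall, and -1.22 on day 14 (SE 0.09, adjusted p = 0.00261), a 2.32-fold fall. Leaving out control day 4, 7 or 14 ended the day 7 call, with an adjusted p of up to 0.0731. The day 14 call was kept under all 10 alternatives run for that day. Over all days its log2 difference was -0.63 with an adjusted p of 0.233.

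Cyp2d12 belongs to the mouse Cyp2d cluster, whose human relative CYP2D6 oxidises many drugs. It read 8.53, 8.27, 7.63 and 6.95 in heme pools, against 8.49, 8.43, 8.23, 8.36 and 8.24 in control pools. The day 2 heme pool was the highest of all 9 and the day 14 heme pool the lowest. The log2 difference was -0.72 on day 7 (SE 0.11, adjusted p = 0.0403) and -1.40 on day 14 (SE 0.11, adjusted p = 0.00259), a 2.65-fold fall. Leaving out any 1 control pool ended the day 7 call, with an adjusted p of up to 0.12, and none ended that of day 14. The Cyp2d genes did not move as 1: of 10 members with 9 tested, 3 were lower on day 14 (Cyp2d12, Cyp2d34 at -0.55 and Cyp2d26 at -0.42) and 1 was higher (Cyp2d40 at 0.53). Cyp2d22, held to be the mouse counterpart of CYP2D6, had 8.56 to 8.82 in heme pools and 8.33 to 8.59 in control pools (log2 difference over all days 0.22, adjusted p = 0.162). Genes of this cluster are near copies, and their probes may share transcripts.

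Cyp27a1, the mitochondrial sterol 27-hydroxylase of bile acid synthesis, was the other gene more than 1 log2 unit below the mean of the 5 control pools on day 14. It read 8.54, 8.31, 7.89 and 7.41 in heme pools, against 8.72, 8.52, 8.61, 8.53 and 8.29 in control pools. The heme values were lower on each later day, and the lowest control value was also that of day 14. Against the control pool of the same day, the difference on day 14 was -0.87. On day 14 the log2 difference was -1.12 (SE 0.15, adjusted p = 0.00681), a 2.18-fold fall, and on day 7 the adjusted p was 0.0919. Cyp3a13, a Cyp3a gene active outside the mouse liver, had 10.57, 10.24, 10.26 and 9.94 in heme pools and 10.40 to 10.51 in control pools, and was lower on day 14 (log2 difference -0.52, adjusted p = 0.00327). The remaining genes lower on that day were Cyp2c68 (-0.57), Cyp39a1 (-0.33), Cyp2u1 (-0.23) and Cyp4f13 (-0.22). Small intestine markers in the same pools averaged 6.22, 6.01, 5.86 and 5.67 in the heme pools of days 2, 4, 7 and 14 and 6.15 to 6.28 in control pools, with 3 of 5 tested markers lower and 1 higher (Lct, log2 difference 0.34) on day 14, when 15.8% of all genes were lower, and their part in the result was not tested. In these scrapings fewer cells of a type and less RNA per cell cannot be told apart.

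The genes higher on day 14 were Cyp4a10 (2.54), Cyp2c66 (0.54), Cyp2d40 (0.53), Cyp11b2 (0.52), Cyp26c1 (0.49), Cyp4f18 (0.40), Cyp46a1 (0.39), Cyp8b1 (0.37), Cyp26b1 (0.35), Cyp4f41-ps (0.32), Cyp2j6 (0.30), Cyp4f16 (0.28), Cyp4f40 (0.16) and Cyp4f14 (0.15). Leaving out 1 control pool ended the day 14 calls of Cyp4f14 (day 0, 2, 4 or 14), Cyp4f16 (day 4, 7 or 14), Cyp8b1 (day 0, 2, 4 or 7), Cyp2u1 (day 0, 2 or 14) and Cyp2j9 (day 0). Centring the arrays on their medians ended those of Cyp4f14, Cyp4f16, Cyp4f40, Cyp8b1 and Cyp2u1 and left 10 higher and 10 lower. For 10 of these 14 higher genes the heme pool of day 14 was the highest of the 9 pools, and for 10 of the 11 lower genes it was the lowest. As that pool also made the calls, this follows largely from the choice of genes. Several of the higher genes were near the low-value limit, where that pool read high in general: it was the highest for 14 of the 43 dim P450 genes (32.6%) and for 37% of all dim genes. Cyp11b2, the aldosterone synthase of the adrenal, read 4.76, 4.85, 4.57 and 5.27 in heme pools, against 4.76, 4.68, 4.78, 4.76 and 4.76 in control pools. Its call thus rests on a single pool of low signal. Cyp26b1 and Cyp26c1, which break down retinoic acid, read 5.91 and 6.17 in that pool, against 5.50 to 5.61 and 5.59 to 5.76 in control pools. Cyp8b1, which makes cholic acid in the liver, and Cyp46a1, the cholesterol hydroxylase of the brain, read 5.09 and 5.41 there, against 4.57 to 4.78 and 4.99 to 5.07 in control pools.

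The members best known for induction by foreign compounds did not stand out. Cyp1a1, the classical target of the aryl hydrocarbon receptor, was dim at 4.31 to 4.45 in heme pools and 4.09 to 4.31 in control pools. Cyp1a2 and Cyp1b1, induced by the same receptor, were dim too, with differences of 0.04 and -0.02. Cyp2b10, induced in liver by the receptor CAR, had 3.98 to 4.41 in heme pools and 3.91 to 4.30 in control pools. Cyp3a11, the main liver target of the receptor PXR, had 2.96 to 3.10 in heme pools and 3.10 to 3.31 in control pools, and Cyp3a25 a log2 difference of 0.25 with an adjusted p of 0.275. All 5 Cyp2b genes and all 3 family 1 genes were dim, so these probes give no measure of a small change. Cyp2e1, which oxidises ethanol, varied among the control pools from 4.75 to 6.32 and read 5.63 to 5.94 in heme pools. Cyp2s1 and Cyp2w1, known from epithelia and from human colon tumours, had log2 differences of -0.09 and -0.18 with adjusted p of 0.487 and 0.395.

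Genes of steroid hormone and bile acid synthesis were mostly dim. Cyp7a1, the first enzyme of bile acid synthesis in liver, had 3.12 to 3.29 in heme pools and 3.10 to 3.13 in control pools, and Cyp7b1 had 4.08 to 4.64 in heme pools and 4.13 to 4.36 in control pools. Cyp11a1, Cyp11b1, Cyp17a1 and Cyp21a1, of the adrenal and gonads, were dim with differences of 0.20, 0.23, 0.07 and 0.06. Cyp39a1, a hydroxylase of 24-hydroxycholesterol, had 8.45 to 8.75 in heme pools and 8.74 to 8.83 in control pools. Of the vitamin D enzymes, Cyp27b1, which makes the active hormone, was dim (difference 0.09), and Cyp2r1, which hydroxylates carbon 25, had a log2 difference of -0.05 with an adjusted p of 0.823. Cyp26a1, of retinoic acid breakdown, was dim, and Cyp20a1, an orphan enzyme, had a log2 difference of 0.01.

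Whether the diet difference itself changed between days 2 and 4 and days 7 and 14 was tested over the 8 pools of those days. No P450 gene was called, and 0.00% of all genes were (limma, adjusted p under 0.05). At an unadjusted p under 0.05 there were 8 P450 genes (18.6%), against 6.62% of all genes. Cyp2f2 had the smallest adjusted p, 0.304, with a change of -1.11 (SE 0.13), followed by Cyp2d12 at -1.08 (SE 0.29, adjusted p = 0.602). Cyp4a10 had 1.19 (SE 0.45, adjusted p = 0.723), and Cyp4b1 -0.21 (SE 0.11, adjusted p = 0.774). The later start of the lower genes is therefore a description of the day values and did not pass this test. In the control pools alone, no P450 gene was called for a change with time (limma) and 0.00% of all genes were, with 12 P450 genes (27.9%) at an unadjusted p under 0.05, against 7.18% of all genes. Cyp2e1 had the steepest of these slopes, 0.34 log2 per doubling of day plus 1, with an adjusted p of 0.677.

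The partners and regulators of the P450 enzymes were read from lists written for this purpose. Of 9 listed electron donors and partners, 6 had a probeset of their own and were tested, and P450 reductase was not among these 6. Over all days 0 of them were called. On day 14 there were 3 higher, Cyb5b, Cyb5r3 and Fdx1, with log2 differences of 0.21, 0.25 and 0.20. On that day 11.3% of all genes were higher and 15.8% lower. Of 8 tested genes of heme synthesis, 0 were called over all days and on day 14 there were 2 higher and 1 lower. Of 20 tested receptors and partners that control P450 genes, 0 were called over all days, and on day 14 there were 0 higher and 1 lower, Rara (log2 difference -0.24, adjusted p = 0.0289). Ppara had 8.20 to 8.58 in heme pools and 8.26 to 8.52 in control pools, Ahr had 7.46 to 7.54 in heme pools and 7.46 to 7.69 in control pools, and Nr1i2, which codes for PXR, had 9.53 to 9.70 in heme pools and 9.48 to 9.59 in control pools.

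The other targets of those receptors and genes of shared substrates are given by list, over all days and on day 14, when 11.3% of all genes were higher and 15.8% lower. Of 17 tested PPAR alpha targets, 14 were higher over all days and 0 lower, and on day 14 the counts were again 14 and 0. Their median log2 difference over all days was 1.16, beside 0.595% of all genes higher and a median of -0.00. As the lists were chosen with earlier results of these data known, these counts are no independent test. Of 10 tested PXR and CAR targets, 2 were higher over all days (Abcb1a at 0.23 and Abcc3 at 0.36), and on day 14 there were 7 higher and 1 lower. Of 3 tested targets of the aryl hydrocarbon receptor 0 were called over all days, where Nqo1 had a log2 difference of 0.61 with an adjusted p of 0.0555. Nqo1 was called higher on day 7 (0.83, adjusted p = 0.0233) and on day 14 (0.90, adjusted p = 0.00474). The other tested targets, Tiparp and Lrat, had -0.05 and -0.08 over all days and -0.12 and -0.37 on day 14. Neither was called. Of 23 tested conjugating enzymes, 1 was higher over all days, and on day 14 there were 12 higher and 4 lower. The lists share genes, so their counts are not separate results. Gstm1, Gstm2 and Sult1a1 are also listed as PXR and CAR targets, and Alas1 is in that list and in heme synthesis. On day 14 Gstm1, Gstm2 and Alas1 were higher and Sult1a1 was lower. Of 14 tested genes of arachidonic acid and epoxide metabolism, 1 was higher over all days and 1 higher and 3 lower on day 14. The higher one was Ephx2, the soluble epoxide hydrolase that acts on products of the Cyp2c and Cyp2j enzymes. It read 8.43, 8.76, 8.90 and 8.78 in heme pools, against 7.98, 8.17, 8.06, 8.29 and 8.08 in control pools (log2 difference 0.60, adjusted p = 0.0187). Over all days 3 of 14 tested retinoid genes, 1 of 7 tested steroid genes and 0 of 5 tested vitamin D responders were higher. The steroid gene was Hsd17b4 (log2 difference 0.54), while 0 of that list were lower and its median was 0.10. On day 14 the retinoid genes had 5 higher and 1 lower, the steroid genes 2 higher and 0 lower, and the vitamin D responders 0 higher and 4 lower.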

How the data were processed

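RNA pools of scraped colon epithelium were measured on Affymetrix whole-transcript arrays. The authors deposited 1 log2 value per probeset and array, made with RMA per the submitters' processing notes; its version, annotation and build are not given in the sources used here. The method sets the arrays to a common distribution, so a shift of all genes would be hidden. Median polish leaves exact ties: 34.4% of tested genes, 25.6% of tested P450 genes and 30.6% of the genes called on day 14 had tied control values, which lowers their spread. Arrays have no read depth, and their number limits the precision.

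Probesets were named from the platform annotation. Of 35556, 21789 had 1 gene symbol, 1621 several and 12146 none. The probeset with the highest mean stood for a gene, which gave 19938 genes. All 86 P450 genes matched RefSeq by Entrez ID, and 7 P450 probesets annotated to several genes were left out. Genes with a mean at or above the 25th percentile, 14953 in all, were fitted with limma 3.58.1 in R 4.3.3 (lmFit, eBayes with intensity trend), with Benjamini-Hochberg adjustment over the whole set. The fits were tested on simulated data. Python 3.11.15 and matplotlib 3.10.9 made the tables and figures.

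Named genes are P450 genes called in any comparison, the 12 with the highest mean, the 10 highest and 6 lowest log2 differences by diet, and 38 listed symbols, of which 34 matched. Cyp21a1, Cyp2r1, Cyp4a12a, Cyp4a12b, Cyp4f39 and the genes next to the low-value limit fall outside this rule and were added after their values were seen. Members and lists were chosen with earlier results of these data known. The labels give heme and control pools of days 2, 4, 7 and 14 the same day. Pearson's r between the deviations of same-day pools was 0.658, 0, 0.3 and 0.204, and at most 0.396 between different days. As the pairing is in the labels, results whose call the day, as a replicate block, alters carry both values. Alternatives were other filters, no trend, median centring, probeset means, the day block and leaving out pools.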

Additional observations from a re-analysis of the deposited data

Results flagged for a closer look

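Groups of pools of these named genes were checked for 1 pool far from the others by Dixon's ratio. In 7 of 72 groups such a pool was found. Chance gives about 1 in 20 only for genes chosen without regard to these values and for values without ties. Many of these genes were named for a day 14 call, and the controls of Cyp11b2 and Cyp4f41-ps held ties, so that rate does not apply. In the heme pools it was that of day 14 in 4 cases, all of them genes called on day 14. Cyp26b1 read 5.91 there, against 5.58 to 5.61 in the other heme pools, Cyp2j9 5.42 against 5.75 to 5.82, Cyp39a1 8.45 against 8.71 to 8.75, and Cyp4f41-ps 5.79 against 5.40 to 5.45. In the control pools Cyp2c55 read 12.30 on day 0, against 12.54 to 12.55 in the others, Cyp11b2 4.68 on day 2 against 4.76 to 4.78, and Cyp4f41-ps 5.54 on day 4 against 5.45 in all others.

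Heme minus control differences were taken here from the control pool of the same day. Among tested P450 genes named by the rule, 3 had one sign on days 2 and 4, the opposite on days 7 and 14. These were Cyp2d12, Cyp4f13 and Cyp26b1. Against the mean of the 5 control pools, Cyp26b1 had 0.04, 0.02, 0.04 and 0.35 on days 2, 4, 7 and 14, with no change of sign. On that measure Cyp2d12 had 0.18, -0.08, -0.72 and -1.40, and Cyp4f13 had 0.03, 0.03, -0.08 and -0.22. The difference of the differences, late minus early, was -1.08 for Cyp2d12 (adjusted p = 0.602), -0.24 for Cyp4f13 (adjusted p = 0.689) and 0.22 for Cyp26b1 (adjusted p = 0.788), and limma's test called none of them. P450 genes outside the rule were not searched for this.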

How the results depend on the processing

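Over all days, 4 P450 genes were higher. The count was 2 without the intensity trend, 2 with the day as a replicate block, 2 with both pools of day 2 left out and 0 with both pools of day 7 left out, and 0 to 4 with 1 pool left out. With both pools of day 7 out, 0 of all genes were called, so that loss is not particular to P450 genes. The block took Cyp4a10 and Cyp4f16 out of the calls; over late minus early it called 0, and it changed no other call. On day 7, the counts of 4 higher and 2 lower were 2 and 1 without the trend, 3 and 1 without the low-value filter, and 0 to 1 and 0 to 1 with 1 control pool left out. On day 14, 14 were higher, but 6 with the filter at the median of gene means, where fewer P450 genes are tested, 10 with the arrays centred on their medians and 11 to 13 with 1 control pool left out; 11 were lower, and 9 to 11 under these alternatives. The cause of the other shifts was not tested. Of 882 single-gene values under these alternatives, 787 kept their side of the threshold, 91 lost a call, 4 gained one (all Cyp2c65) and 0 changed sign after being called. The lone-pool comparisons lean on 5 controls, and signal near the low-value limit is poorly resolved.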
